A study of Rattus norvegicus with 52 samples.

Results

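The 45 genes described here encode proteins that copy DNA and divide the cell. They were chosen by name, as every probe set of the Affymetrix RAE230A and RAE230B rat chips whose annotated symbol, or an older alias of it, belonged to the list. The list was drawn up with earlier results of these data known. All 45 were found, with 62 probe sets among 31042 tested, and no limit on brightness was set. Each gene was represented by its brightest probe set over all rats, and these 45 stood beside 13807 genes in all. A total of 33 genes had 1 probe set, and the brightest probe set of 30 genes was at or above its chip's median.

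RNA came from the left kidneys of 26 male rats aged 40 to 42 days. The S group was the inbred Dahl salt-sensitive strain SS/jr, which becomes hypertensive when fed salt. ET3x1 and ET3x2 are congenic strains, each 1 inbred line of S rats into which a chromosome segment from the R strain was bred, so both share most of their genome with S. All rats were weaned at 30 days onto a low-salt diet of 0.4% NaCl (Harlan Teklad TD7034). At 39 to 41 days a part of each strain was moved to a high-salt diet of 4% NaCl (TD83033) for 24 hours. There were 5 S rats on each diet and 4 rats of each congenic strain on each diet. Each rat gave 1 RNA sample, hybridised to both chips, with no pooling. Whole kidney was measured, so more dividing cells and more RNA per cell cannot be told apart, nor can fewer cells and less RNA.

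Before a cell divides, the MCM helicase is loaded onto origins of replication and, once activated, unwinds the DNA. PCNA then clamps the polymerases onto the template, while nucleotide enzymes supply the precursors. Cyclins activate cyclin-dependent kinases to start each phase, and inhibitors such as p21 (Cdkn1a) hold them back. After replication, kinases and checkpoint proteins align and part the chromosomes. Most cells of a kidney at this age are not dividing, and the tubule cells are known to re-enter the cycle during growth and after injury.

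Replication and mitosis genes are known to share promoter elements, among them the E2F site of genes for S phase, the CHR element of genes for mitosis and the CCAAT box bound by NF-Y. The promoters of Pcna (a sliding clamp), Mcm6 (a helicase subunit), Cks2 (a small kinase subunit) and Cdk1 (a kinase) are shown to let a reader see such letters. All of these genes were higher on high salt for the mean of the strains. Each line holds the 250 bases before the RefSeq start site in GRCr8, 5′ to 3′ on the gene's strand. Capitals mark TTTNNCGC (E2F), TTTGAA (CHR) and CCAAT on either strand. The regions are chr3:139955821-139956070 (minus strand), chr13:42404353-42404602 (minus), chr17:13727520-13727769 (minus) and chr20:19265043-19265292 (plus).
Pcna: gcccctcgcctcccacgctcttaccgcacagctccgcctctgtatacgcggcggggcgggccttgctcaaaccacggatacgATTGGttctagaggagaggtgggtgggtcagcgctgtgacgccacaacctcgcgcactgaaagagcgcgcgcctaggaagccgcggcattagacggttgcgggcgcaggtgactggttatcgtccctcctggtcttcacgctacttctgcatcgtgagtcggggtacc
Mcm6: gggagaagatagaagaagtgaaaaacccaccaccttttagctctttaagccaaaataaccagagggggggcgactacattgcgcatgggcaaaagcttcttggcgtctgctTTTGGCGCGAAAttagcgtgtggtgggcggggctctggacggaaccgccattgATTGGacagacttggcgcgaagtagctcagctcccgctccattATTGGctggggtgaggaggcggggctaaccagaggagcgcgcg
Cks2: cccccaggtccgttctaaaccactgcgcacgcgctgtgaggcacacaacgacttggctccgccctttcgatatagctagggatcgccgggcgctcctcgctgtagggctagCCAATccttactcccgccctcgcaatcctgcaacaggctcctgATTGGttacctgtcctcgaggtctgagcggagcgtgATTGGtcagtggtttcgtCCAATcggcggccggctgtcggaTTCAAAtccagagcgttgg
Cdk1: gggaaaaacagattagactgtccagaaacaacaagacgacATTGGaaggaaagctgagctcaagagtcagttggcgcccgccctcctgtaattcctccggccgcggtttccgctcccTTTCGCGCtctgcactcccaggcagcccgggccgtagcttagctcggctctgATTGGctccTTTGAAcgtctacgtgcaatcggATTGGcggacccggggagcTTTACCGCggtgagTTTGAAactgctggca
In Mcm6 a pair of E2F matches overlap, and in Cdk1 all 3 kinds of match were present. Promoters were matched for 38 of the 45 genes. The E2F letters were found in 11 of these 38 (28.9%) against 4.35% of 27457 rat promoters, the CHR letters in 10 (26.3%) against 16.0%, and CCAAT in 23 (60.5%) against 34.3%. Among the 18 matched genes called higher on high salt, 6 held the E2F letters, 4 the CHR letters and 11 CCAAT, and among the 20 other members 5, 6 and 12 did. A match describes the letters and is not a site of binding.

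The median log2 value of an array was 7.48 to 7.52 for RAE230A and 6.34 to 6.40 for RAE230B. Kidney markers were bright, with the tubule genes Umod and Slc34a1 at percentiles 99.9 and 99.8 of RAE230A. By the Gapdh control, RNA quality moved with diet in the congenic strains. The log2 ratio of the 3' to the 5' Gapdh control signal on RAE230A was 0.83 ± 0.07 (SD, n = 5) in low-salt and 0.81 ± 0.05 (n = 5) in high-salt S rats (exact permutation test, two-sided, p = 0.706). It was 0.88 ± 0.10 and 0.59 ± 0.03 in ET3x1 (n = 4 each, exact permutation p = 0.0286, the smallest that 4 against 4 allow). It was 0.95 ± 0.07 and 0.75 ± 0.11 in ET3x2 (n = 4 each, exact permutation p = 0.0571). Over the 54 such quality tests the ET3x1 difference had an adjusted p of 0.0908. The beta-actin ratio on RAE230A was 1.14 ± 0.26 in low-salt and 0.92 ± 0.17 in high-salt S rats (exact permutation p = 0.159). It was 1.22 ± 0.24 and 0.61 ± 0.10 in ET3x1 (exact permutation p = 0.0286), and 1.05 ± 0.22 and 0.88 ± 0.16 in ET3x2 (exact permutation p = 0.286). On RAE230B both ratios were lower on high salt in both congenic strains (exact permutation p = 0.0286 and adjusted p = 0.0908 each). In ET3x2 the Gapdh ratio there was 0.77 ± 0.03 and 0.59 ± 0.12, and the beta-actin ratio 0.85 ± 0.17 and 0.53 ± 0.08. In S the exact permutation p on RAE230B was 0.373 (Gapdh) and 0.206 (beta-actin). High-salt S rats 1 and 2 had bioD minus bioC spike-in signals of 1.65 and 1.55 on RAE230A, against 2.83 to 2.94 in the others of that group. In ET3x1 this signal was 2.54 ± 0.24 on low and 3.08 ± 0.15 on high salt on RAE230A. On RAE230B it was 2.23 ± 0.17 and 3.03 ± 0.13 in ET3x1 (exact permutation p = 0.0286 on each chip). Between the diets in ET3x2 the exact permutation p was 0.0571 on RAE230A and 0.171 on RAE230B, and in S 0.325 and 0.310.

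High salt for 24 hours went with higher levels of replication genes in the kidney. Averaged over the 3 strains, 22 of the 45 genes were higher on high salt and 0 were lower, while 9.44% of all genes were called in either direction (5.66% higher and 3.78% lower). Because the list was made with earlier results of these data known, these counts describe the members and are no independent test. A gene was called where limma's adjusted p was below 0.05. The change was positive for 41 of the 45, with a median of 0.16 (log2) against -0.01 over all genes. Of the 22, Cks2 differed most at 0.51 ± 0.09 (SE, 1.43-fold), followed by Pcna at 0.50 ± 0.05 (1.41-fold) and Mcm6 at 0.49 ± 0.09 (1.41-fold). No called member changed sign under quantile normalization or centring of the arrays. By role, 5 of 6 helicase genes, 4 of 8 fork genes, 4 of 5 genes of precursor supply, 4 of 11 cyclin and kinase genes, 2 of 4 inhibitor genes and 3 of 11 mitosis genes were called higher.

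**Figure D1:**
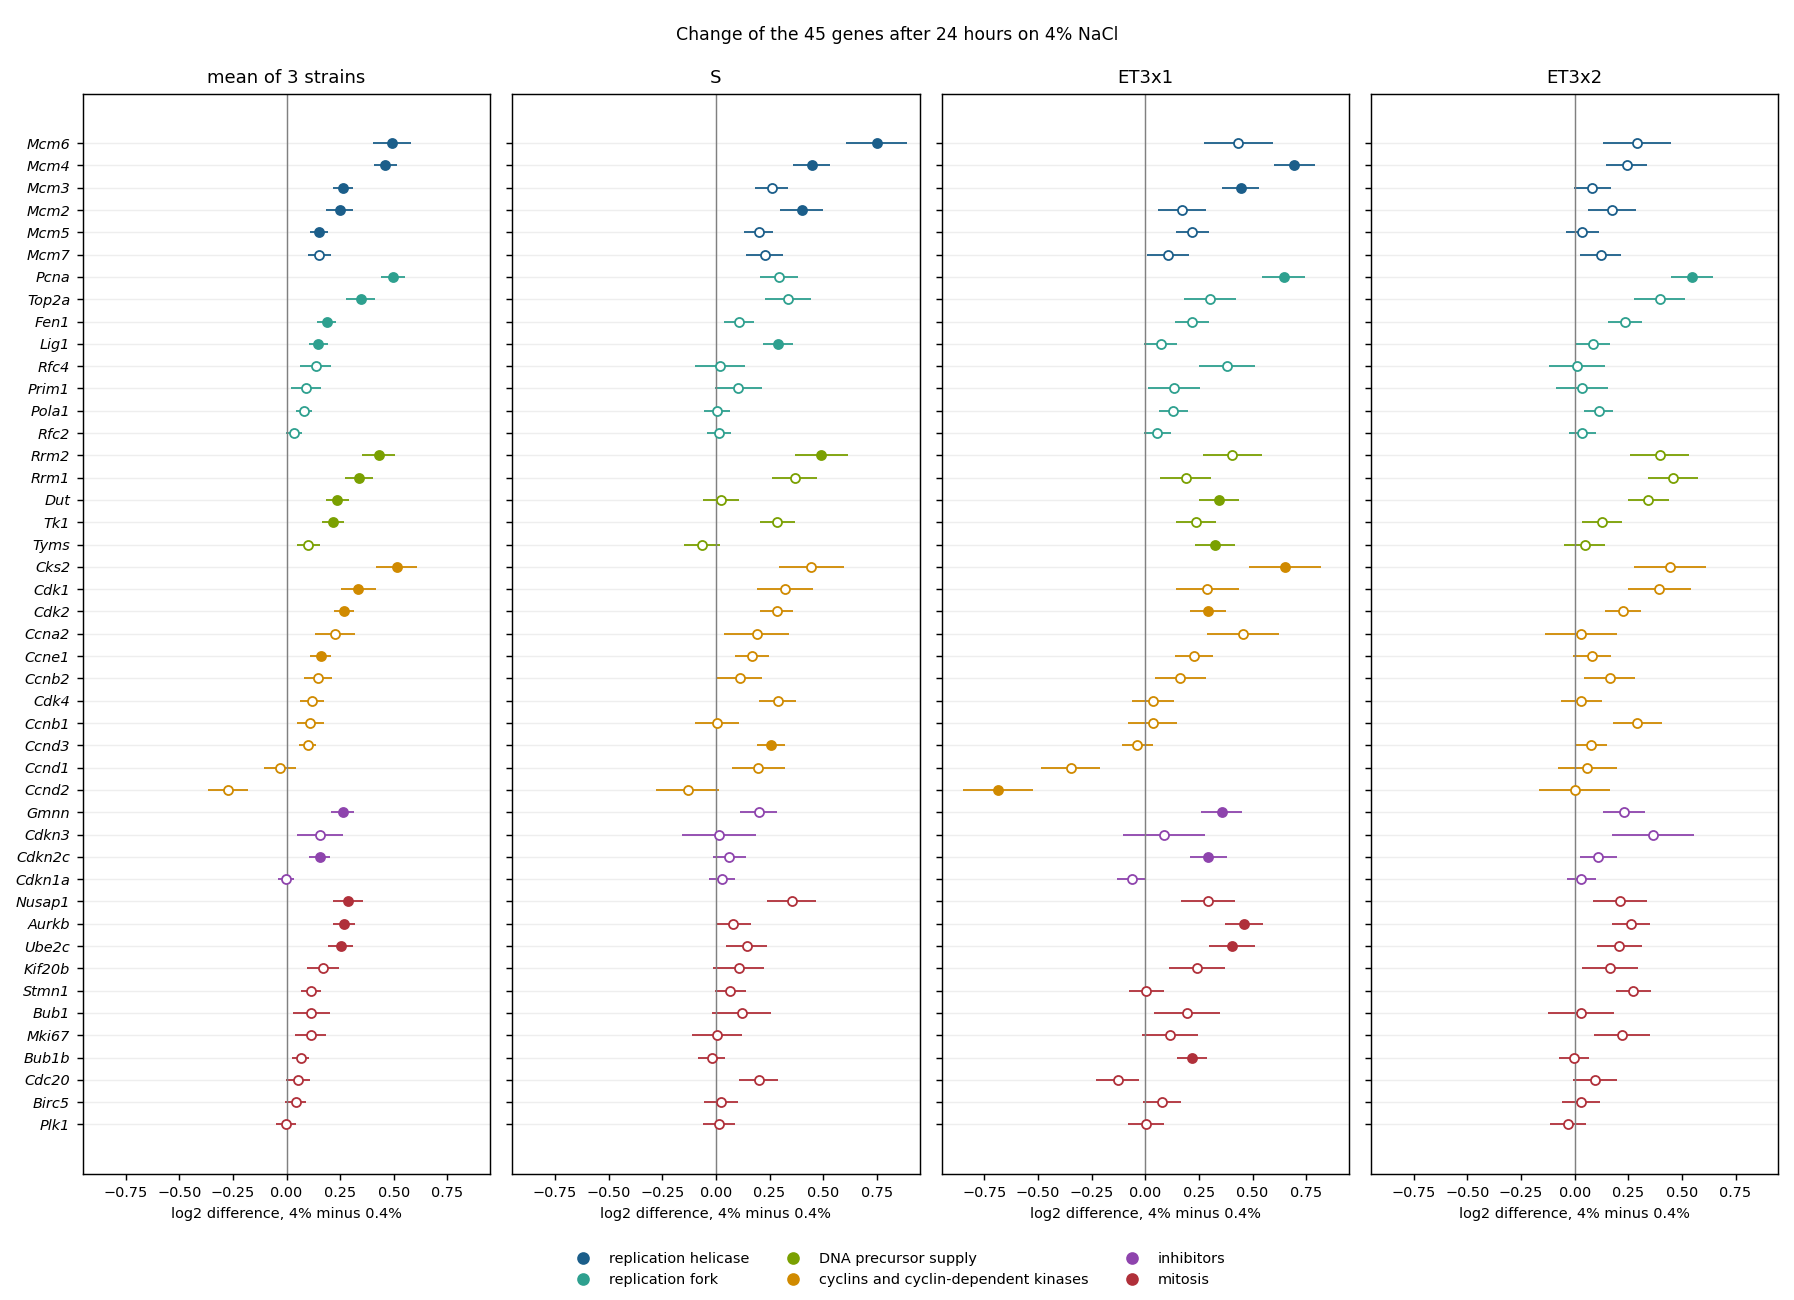
Log2 difference between high and low salt (x axis) of each of the 45 genes (y axis, grouped and coloured by role), for the mean of the 3 strains and for each strain. Points are limma estimates, lines 1 standard error and filled points adjusted p below 0.05. Filled points number 22 for the mean, 6 in S, 13 in ET3x1 (with Ccnd2 the only one to the left of 0) and 1 in ET3x2.

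These calls depended on how RNA quality was handled. With the Gapdh ratio as a covariate 2 members, Pcna (0.47 ± 0.09, limma adjusted p = 0.0305) and Mcm4 (0.45 ± 0.09, adjusted p = 0.0325), stayed called, and calls over all genes fell from 1304 to 19. The median change of the members was 0.21 in that fit, and their median standard error grew from 0.05 to 0.09. With the beta-actin ratio 7 members were called, all higher, with a median of 0.16. The share of all genes called in that fit is not given here, so the 7 cannot be set against it. Without the 8 ET3x1 rats 9 members were called, all higher (Mcm2, Mcm4, Mcm6, Pcna, Top2a, Rrm1, Rrm2, Cdk2 and Gmnn), against 1.37% of all genes, and 41 of 45 changes were positive. Apart from these fits, the part of RNA quality in the calls was not tested.

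Among the subunits of the MCM helicase, the motor that opens the double helix, Mcm4 had the smallest adjusted p. Its log2 values were 6.04, 6.36, 6.27, 6.30 and 6.23 in low-salt and 6.70, 6.80, 6.77, 6.46 and 6.69 in high-salt S rats. They were 5.68, 5.77, 5.91 and 6.19 against 6.83, 6.58, 6.55 and 6.37 in ET3x1, and 6.07, 6.07, 6.13 and 6.09 against 6.48, 6.36, 6.29 and 6.21 in ET3x2. Within each strain every high-salt rat was above every low-salt rat. The mean difference was 0.46 ± 0.05 (limma adjusted p = 3.42e-06). In ET3x2 alone Mcm4 was 0.24 ± 0.10 (limma adjusted p = 0.314) and did not pass. Its probe set was at percentile 27.3 of its chip, so this gene was measured at a dim level. Mcm6 was 6.40, 7.13, 7.20, 7.03 and 7.13 in low-salt and 7.58, 7.92, 7.92, 7.67 and 7.55 in high-salt S rats, with no overlap. In the congenic strains its groups overlapped. Mcm3 (0.26 ± 0.05), Mcm2 (0.25 ± 0.06) and Mcm5 (0.15 ± 0.04), further subunits of the same ring, were also called higher for the mean of the strains. Mcm7, the sixth subunit, was 0.15 ± 0.05 (limma adjusted p = 0.0752) and did not pass.

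**Figure D2:**
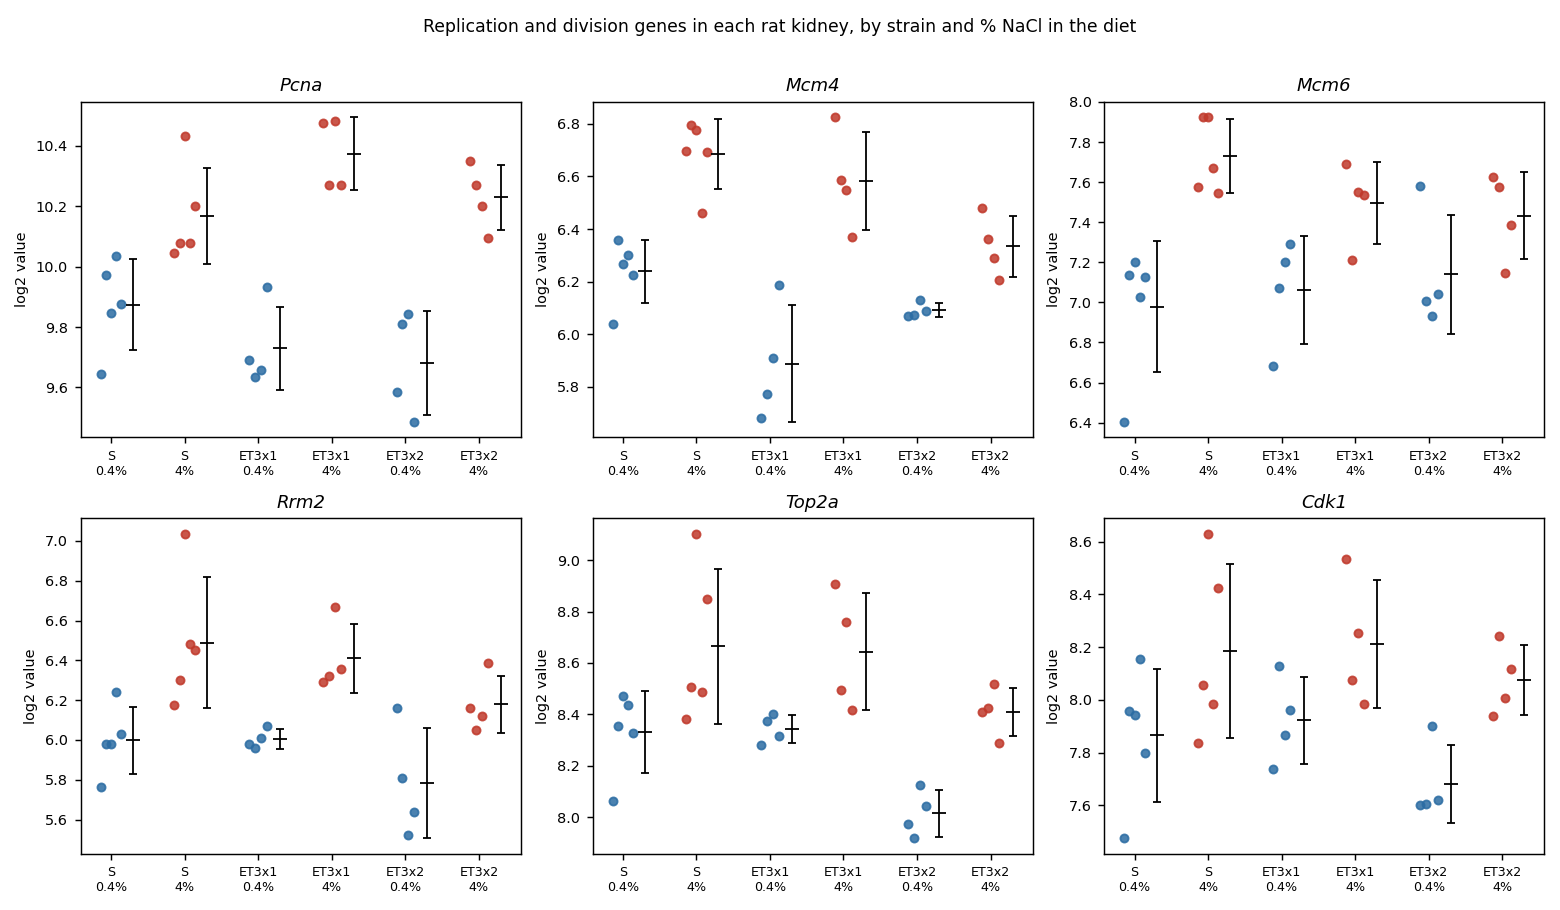
Log2 values (y axis) of 6 genes in every rat by strain and % NaCl in the diet (x axis), with low salt in blue and high salt in red. Black marks are the mean ± 1 SD of the 5 S or 4 congenic rats of the group. For Pcna and Mcm4 every high-salt rat lies above every low-salt rat of its strain, while Cdk1 overlaps in S and ET3x1.

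At the replication fork, Pcna, the sliding clamp of the DNA polymerases, was 9.64, 9.97, 9.85, 10.03 and 9.88 in low-salt and 10.05, 10.08, 10.43, 10.08 and 10.20 in high-salt S rats. In ET3x1 it was 9.69, 9.63, 9.66 and 9.93 against 10.48, 10.27, 10.48 and 10.27, and in ET3x2 9.58, 9.81, 9.84 and 9.49 against 10.35, 10.27, 10.20 and 10.10. The diets did not overlap in any strain, though the gap in S was small. The mean difference was 0.50 ± 0.05 (limma adjusted p = 2.49e-06). Top2a, the topoisomerase that untangles replicated chromosomes, was 8.06, 8.35, 8.47, 8.43 and 8.33 against 8.38, 8.51, 9.10, 8.49 and 8.85 in S. In ET3x1 it was 8.28, 8.37, 8.40 and 8.32 against 8.91, 8.50, 8.76 and 8.42, and in ET3x2 7.97, 7.92, 8.12 and 8.04 against 8.41, 8.43, 8.52 and 8.29. The diets overlapped in S alone, and Top2a rose by 0.34 ± 0.07 for the mean of the strains (limma adjusted p = 0.00115). Fen1, which trims the flaps of lagging strands, was 7.67, 7.61, 7.43, 7.39 and 7.57 against 7.71, 7.78, 7.63, 7.56 and 7.54 in S. It was 7.22, 7.31, 7.33 and 7.45 against 7.46, 7.65, 7.54 and 7.54 in ET3x1, and 7.27, 7.52, 7.26 and 7.19 against 7.60, 7.57, 7.46 and 7.54 in ET3x2. The diets were apart in ET3x1 and overlapped in S and ET3x2. Fen1 differed by 0.19 ± 0.04 and Lig1, the ligase that seals those strands, by 0.15 ± 0.04, both called. The clamp loader genes Rfc2 (0.03 ± 0.04) and Rfc4 (0.14 ± 0.07) and the primase and polymerase alpha genes Prim1 (0.09 ± 0.07) and Pola1 (0.08 ± 0.04) did not pass.

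Among the enzymes that supply nucleotides, Rrm2, the small subunit of ribonucleotide reductase, was 5.76, 5.98, 5.98, 6.24 and 6.03 in low-salt and 6.17, 6.30, 7.04, 6.48 and 6.45 in high-salt S rats. It was 5.98, 5.96, 6.01 and 6.07 against 6.29, 6.32, 6.67 and 6.36 in ET3x1, and 6.16, 5.81, 5.52 and 5.64 against 6.16, 6.05, 6.12 and 6.38 in ET3x2. The diets were apart in ET3x1 and overlapped in S and ET3x2, for a mean difference of 0.43 ± 0.08 (limma adjusted p = 4.84e-04). Its partner Rrm1 rose by 0.34 ± 0.07 and thymidine kinase, Tk1, by 0.22 ± 0.05. Dut, the dUTPase that keeps uracil out of DNA, was 9.81, 10.22, 10.03, 9.98 and 10.00 against 10.03, 10.06, 10.12, 10.10 and 9.85 in S. It was 9.76, 9.69, 10.07 and 10.05 against 10.17, 10.24, 10.32 and 10.20 in ET3x1, and 9.72, 9.54, 9.48 and 9.71 against 9.86, 10.13, 9.84 and 9.99 in ET3x2. The diets overlapped in S and were apart in both congenic strains, with a mean difference of 0.24 ± 0.05. Tyms, thymidylate synthase, was 0.10 ± 0.05 and did not pass, although it was called in ET3x1 (0.33 ± 0.09, limma adjusted p = 0.0248).

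Of the cyclins and their kinases, Cks2, a small kinase subunit, Cdk1, the kinase that drives mitosis, Cdk2, the kinase of S phase, and Ccne1, its cyclin E partner, rose for the mean of the strains. Cdk1 was 7.47, 7.96, 7.94, 8.16 and 7.80 in low-salt and 7.83, 8.06, 8.63, 7.98 and 8.42 in high-salt S rats. It was 7.74, 8.13, 7.87 and 7.96 against 8.53, 8.08, 8.25 and 7.99 in ET3x1, and 7.60, 7.60, 7.90 and 7.62 against 7.94, 8.24, 8.01 and 8.12 in ET3x2. The diets overlapped in S and ET3x1 and were apart in ET3x2, and the mean difference was 0.33 ± 0.08 (limma adjusted p = 0.00818). Cdk2 rose by 0.27 ± 0.05 and Ccne1 by 0.16 ± 0.05. The D-type cyclins carry growth signals to the cycle, and none of the 3 was called for the mean of the strains. Ccnd1 was 10.05, 10.41, 10.86, 10.68 and 10.88 against 10.78, 10.77, 10.72, 10.80 and 10.80 in S. It was 10.60, 10.94, 11.10 and 11.01 against 10.68, 10.61, 10.56 and 10.41 in ET3x1, and 10.93, 11.00, 10.61 and 10.69 against 10.59, 11.06, 11.03 and 10.79 in ET3x2. By this brightest probe set the diets overlapped in all strains and the mean difference was -0.03 ± 0.08 (limma adjusted p = 0.852). Another Ccnd1 probe set was lower in every high-salt than in every low-salt ET3x1 rat. Its salt response differed between ET3x1 and S (-0.63 ± 0.17, limma adjusted p = 0.0430). A further set was called lower on high salt in ET3x1, and both are described below.

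By the brightest probe sets, Ccnd2, cyclin D2, was the single member called lower on high salt in any strain. In ET3x1 it was 8.22, 8.73, 8.53 and 8.28 on low and 7.95, 7.96, 7.81 and 7.29 on high salt, a difference of -0.69 ± 0.16 (limma adjusted p = 0.00734). All low-salt ET3x1 rats lay above all high-salt ones, while in S and ET3x2 the diets overlapped. For the mean of the strains Ccnd2 differed by -0.27 ± 0.09 (limma adjusted p = 0.0589). Ccnd3, cyclin D3, was 9.28, 9.48, 9.72, 9.51 and 9.63 against 9.82, 9.77, 9.75, 9.80 and 9.77 in S, with no overlap. It was 9.68, 9.82, 9.78 and 9.83 against 9.73, 9.77, 9.66 and 9.79 in ET3x1, and 9.85, 9.80, 9.66 and 9.72 against 9.82, 9.91, 9.78 and 9.84 in ET3x2, where the diets overlapped. Cdk4, the partner kinase of the D-type cyclins, was 9.55, 9.92, 10.10, 9.73 and 10.08 against 10.04, 10.32, 10.05, 10.27 and 10.14 in S. In the low-salt congenic rats it was 10.00, 10.18, 10.17 and 10.22 (ET3x1) and 10.31, 10.26, 10.00 and 10.21 (ET3x2), and on high salt 10.28, 10.20, 10.09 and 10.14, and 10.20, 10.30, 10.13 and 10.28. It was 0.12 ± 0.05 for the mean of the strains and did not pass. Neither did the mitotic cyclins Ccna2 (0.22 ± 0.09), Ccnb1 (0.11 ± 0.06) and Ccnb2 (0.15 ± 0.07).

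**Figure D3:**
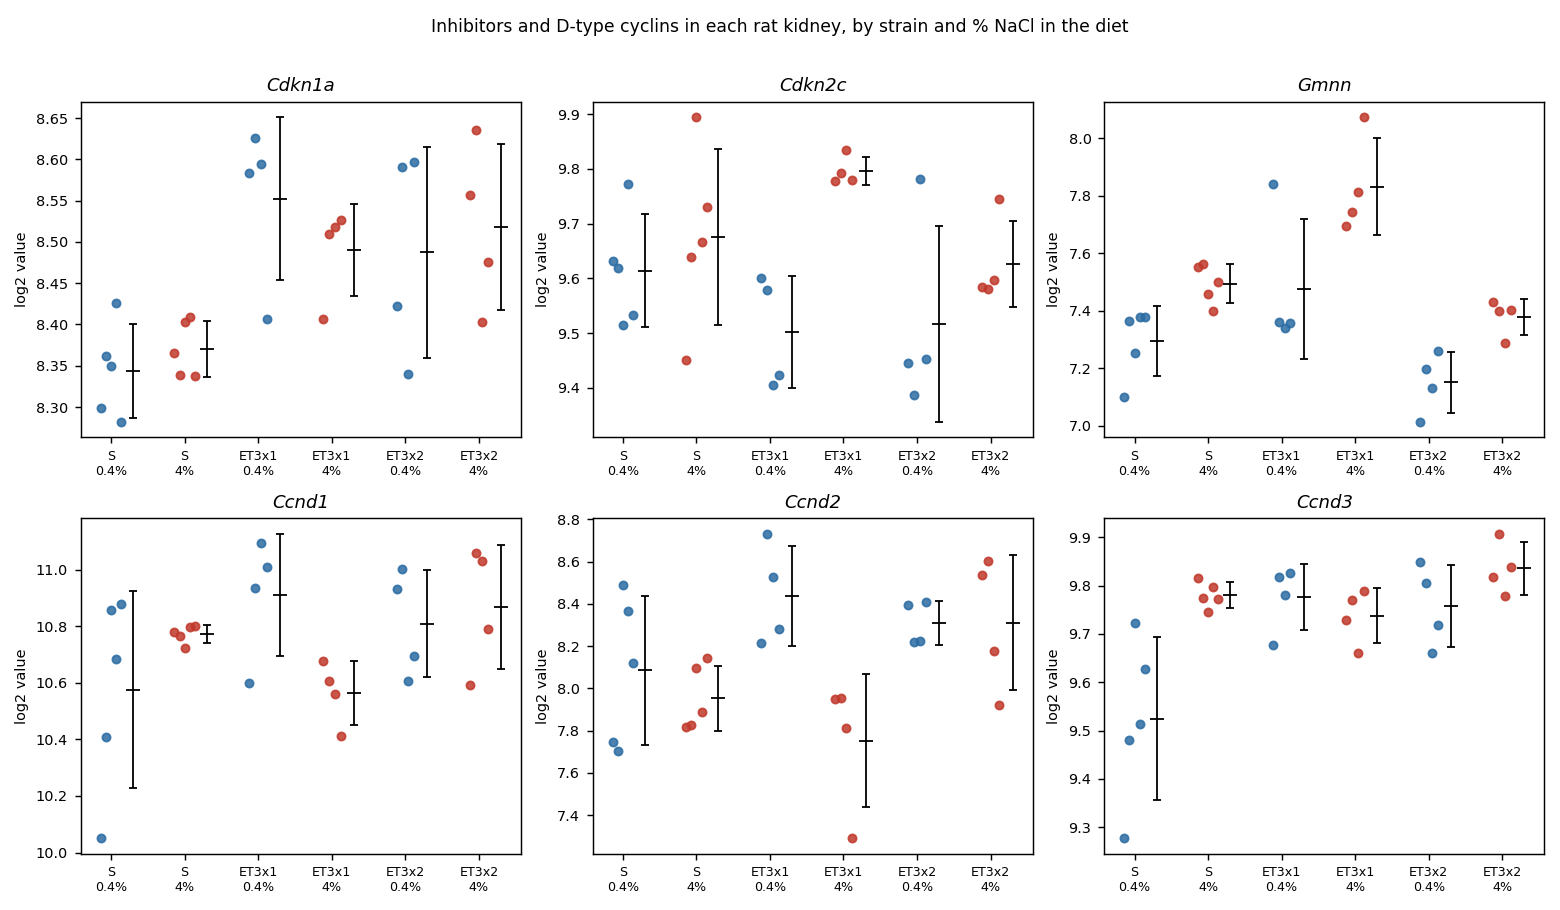
Log2 values (y axis) of 3 inhibitor genes and the 3 D-type cyclins in every rat by strain and % NaCl in the diet (x axis), low salt in blue and high salt in red. Black marks are the mean ± 1 SD of the 5 S or 4 congenic rats. Cdkn1a overlaps between the diets in each strain, and Ccnd2 is lower in every high-salt than in every low-salt ET3x1 rat.

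The inhibitors differed among themselves. Cdkn1a, which encodes p21, the inhibitor of cyclin-dependent kinases switched on by p53, was 8.30, 8.36, 8.35, 8.43 and 8.28 in low-salt and 8.37, 8.34, 8.40, 8.41 and 8.34 in high-salt S rats. It was 8.58, 8.63, 8.59 and 8.41 against 8.41, 8.51, 8.52 and 8.53 in ET3x1, and 8.42, 8.59, 8.34 and 8.60 against 8.56, 8.64, 8.40 and 8.48 in ET3x2. The diets overlapped in every strain, with a mean difference of -0.0016 ± 0.04 (limma adjusted p = 0.987). Cdkn2c, which encodes p18, an inhibitor of Cdk4 and Cdk6, was 9.63, 9.62, 9.51, 9.77 and 9.53 against 9.45, 9.64, 9.89, 9.67 and 9.73 in S. It was 9.60, 9.58, 9.41 and 9.42 against 9.78, 9.79, 9.83 and 9.78 in ET3x1, and 9.45, 9.39, 9.78 and 9.45 against 9.58, 9.58, 9.60 and 9.74 in ET3x2. Only in ET3x1 did the diets not overlap. Its mean difference of 0.16 ± 0.05 was just called (limma adjusted p = 0.0395) and depended on single rats, since each of 16 rats ended the call when omitted, with changes of 0.14 to 0.18. Gmnn, geminin, which blocks a second licensing of origins, was 7.10, 7.36, 7.25, 7.38 and 7.38 against 7.55, 7.56, 7.46, 7.40 and 7.50 in S. It was 7.84, 7.36, 7.34 and 7.36 against 7.70, 7.74, 7.81 and 8.07 in ET3x1, and 7.01, 7.20, 7.13 and 7.26 against 7.43, 7.40, 7.29 and 7.40 in ET3x2. The diets were apart in S and ET3x2, and Gmnn rose by 0.26 ± 0.05. Cdkn3, a phosphatase that acts on cyclin-dependent kinases, was 0.16 ± 0.11 and did not pass.

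Of the mitosis genes 3 were called higher. Aurkb, the aurora kinase that corrects attachments of chromosomes, was 6.91, 6.81, 6.80, 6.89 and 6.77 in low-salt and 6.70, 6.80, 7.05, 6.86 and 7.19 in high-salt S rats. It was 6.79, 6.75, 6.64 and 6.73 against 7.28, 7.19, 7.33 and 6.96 in ET3x1, and 6.65, 6.68, 6.79 and 6.49 against 6.91, 6.97, 6.98 and 6.79 in ET3x2. The diets were apart in ET3x1 and overlapped in S and ET3x2, with a mean difference of 0.27 ± 0.05 (limma adjusted p = 7.29e-04). Nusap1, a spindle protein, rose by 0.29 ± 0.07 and Ube2c, a ubiquitin-conjugating enzyme of mitotic exit, by 0.25 ± 0.06. Mki67, the gene of the proliferation marker Ki-67, was 0.11 ± 0.07 (limma adjusted p = 0.358) and did not pass. Plk1, polo-like kinase, was -0.0044 ± 0.05 and Birc5, survivin, 0.04 ± 0.05. The checkpoint genes Bub1 and Bub1b, and Cdc20, Kif20b and Stmn1, lay between 0.05 and 0.17 and were not called.

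Within single strains fewer genes passed. In S rats 6 of 45 members were called, all higher, against 1.43% of all genes (1.17% higher and 0.261% lower). They were Mcm6 (0.75 ± 0.14, 1.68-fold), Rrm2 (0.49 ± 0.12), Mcm4 (0.45 ± 0.09), Mcm2 (0.40 ± 0.10), Lig1 (0.29 ± 0.07) and Ccnd3 (0.26 ± 0.07). In S rats 42 of 45 changes were positive. In ET3x1 rats 12 members were called higher and 1 lower, against 9.64% of all genes, of which more were lower (5.89%) than higher (3.75%). The Gapdh ratio differed most between the diets in this strain, and the 13 calls became 0 with that ratio as a covariate, 6 with the beta-actin ratio and 5 with the bioD minus bioC signal. Shares of all genes called in ET3x1 in those fits are not given here. Mcm4 (0.69 ± 0.10, 1.62-fold), Cks2 (0.65 ± 0.17) and Pcna (0.64 ± 0.10) led the higher ones, followed by Aurkb (0.46 ± 0.09), Mcm3 (0.45 ± 0.09), Ube2c (0.40 ± 0.11), Gmnn (0.36 ± 0.10) and Dut (0.34 ± 0.09). Tyms, Cdkn2c (0.29 ± 0.09), Cdk2 (0.29 ± 0.08) and Bub1b (0.22 ± 0.07) made up the rest. In ET3x2 rats Pcna alone was called (0.55 ± 0.10, 1.46-fold, limma adjusted p = 0.0153), against 0.55% of all genes (0.319% higher and 0.232% lower), and 42 of 45 changes were positive. Every high-salt rat was above every low-salt rat for 9 members in S (2% of all genes), 17 in ET3x1 (6.34%) and 11 in ET3x2 (3.09%). The reverse held for 1 member in ET3x1, Ccnd2 (10.2% of all genes).

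Single rats weighed on these counts. Low-salt S rat 1 had the lowest value of the low-salt S rats for 26 of the 45 members, and its mean over the members was 7.62 against 7.74 to 7.90 in the other low-salt S rats. Its RAE230A array was the least like the others of that chip (median r of 0.984). On RAE230B its array, with those of high-salt ET3x1 rats 3 and 4, was the least like the others. Low-salt S rat 1 also had the highest beta-actin ratio of all rats on both chips (1.52 on RAE230A and 1.41 on RAE230B). Without that rat 2 members were called in S, Mcm6 (0.61 ± 0.13) and Mcm4 (0.40 ± 0.09), and 37 of 45 changes were positive with a median of 0.14. The share of all genes called without it is not given here. The count in S also fell to 2 or 3 without low-salt S rats 2 or 4, any of the 5 high-salt S rats, low-salt ET3x1 rats 3 or 4, low-salt ET3x2 rat 2 or high-salt ET3x2 rat 1. In ET3x1 it fell from 13 to 7 without low-salt rat 3 and to 8 without high-salt rat 3. In ET3x2 it fell to 0 without low-salt rat 4 or high-salt rats 1 or 3. High-salt S rats 3 and 5 had the highest values of their group for Top2a, Cdk1, Cks2 and Aurkb.

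Whether the strains differed in their response to salt was tested directly. No member's brightest probe set was called for ET3x1 against S, where 2.85% of all genes were, nor for ET3x2 against S (0.0145%) or ET3x2 against ET3x1 (0.0435%). Differences nearest to a call were those of Aurkb (0.38 ± 0.12, limma adjusted p = 0.0834) and Tyms (0.39 ± 0.13, adjusted p = 0.0891) for ET3x1 minus S. For ET3x2 minus S they were Dut (0.32 ± 0.13, adjusted p = 0.510) and Mcm6 (-0.46 ± 0.21), and for ET3x2 minus ET3x1 Mcm4 (-0.45 ± 0.14, adjusted p = 0.136) and Mcm3 (-0.36 ± 0.12). These standard errors leave differences of this size undecided, and the strains are not shown to respond alike. These comparisons are not independent, since each pair of them shares the rats of a strain.

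Strain differences averaged over the diets were smaller and mixed. In ET3x1 against S 8 members were called, 5 higher and 3 lower, while 29.8% of all genes were called (16.6% higher and 13.2% lower). Higher in ET3x1 were Gmnn (0.26 ± 0.07), Cdc20, an activator of the anaphase ubiquitin ligase (0.19 ± 0.07), Rfc2 (0.18 ± 0.04), Stmn1, a tubulin-binding protein (0.16 ± 0.06), and Cdkn1a (0.16 ± 0.05). Lower were Bub1 (-0.27 ± 0.10), Mcm4 (-0.23 ± 0.06) and Fen1 (-0.15 ± 0.05). The members' share of 17.8% was below that of all genes. The split was 5 higher and 0 lower without probe sets under the chip's median, and 2 higher and 4 lower with each gene's probe sets averaged. Without high-salt ET3x1 rat 3 the count was 5.

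In ET3x2 against S, a comparison with the same S rats, 12 members were called, 3 higher and 9 lower, against 27.8% of all genes (16.7% higher and 11.1% lower). Lower in ET3x2 were Ccna2, cyclin A2 (-0.35 ± 0.11), Top2a (-0.29 ± 0.08), Mki67 (-0.27 ± 0.09), Rrm2 (-0.26 ± 0.09), Mcm4 (-0.25 ± 0.06), Dut (-0.23 ± 0.06), Ccnb1 (-0.22 ± 0.08), Fen1 (-0.16 ± 0.05) and Pola1 (-0.13 ± 0.05). Higher were Cdk4 (0.19 ± 0.07), Cdkn1a (0.15 ± 0.05) and Ccnd3 (0.14 ± 0.05). The members' share of 26.7% was near that of all genes. Changes were negative for 29 of the 45, with a median of -0.07 against 0.02 over all genes. The split of 3 higher and 9 lower depended on dim probe sets, since with those under the chip's median left out 7 members were called, 4 higher and 3 lower. Ccna2 was dim, between 4.43 and 5.78 in all rats. The count was 7 without low-salt ET3x2 rat 4 or high-salt ET3x2 rat 2, and 8 without low-salt ET3x2 rats 1 or 2, low-salt S rat 1, high-salt S rat 3 or high-salt ET3x2 rat 4. Of the 6 genes named whatever their value, Pcna (-0.07 ± 0.07), Cdk1 (-0.15 ± 0.10), Cdkn2c (-0.07 ± 0.06) and Ccnd1 (0.16 ± 0.09) were not called in ET3x2 against S, nor were Pcna (0.03 ± 0.07), Top2a (-0.0043 ± 0.08), Cdk1 (0.04 ± 0.10), Cdkn2c (0.0037 ± 0.06) and Ccnd1 (0.06 ± 0.09) in ET3x1 against S.

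**Figure D4:**
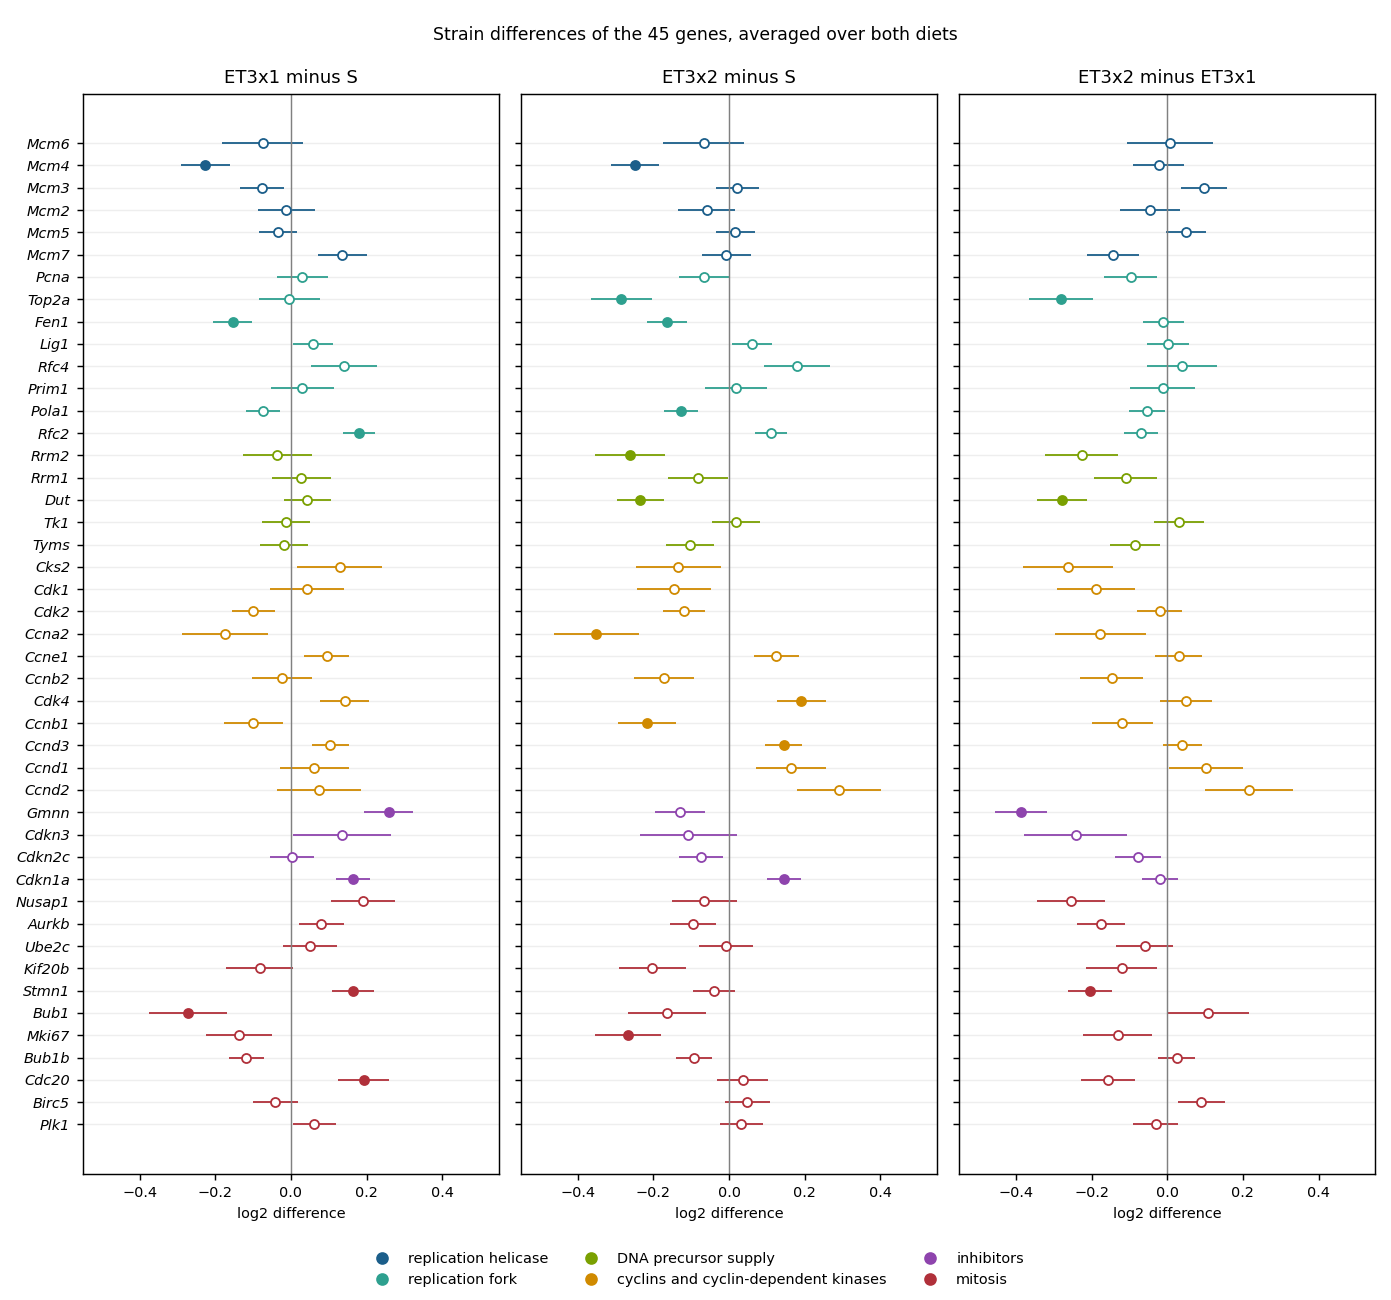
Log2 differences between strains averaged over both diets (x axis) for the 45 genes (y axis, grouped and coloured by role). Points are limma estimates, lines 1 standard error and filled points adjusted p below 0.05. Filled points number 8 for ET3x1 minus S, 12 for ET3x2 minus S (9 of them left of 0) and 4 for ET3x2 minus ET3x1, all left of 0.

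Between the congenic strains 4 members were called, all lower in ET3x2, against 9.36% of all genes (5.39% higher and 3.97% lower). They were Gmnn (-0.39 ± 0.07, limma adjusted p = 0.00165), Top2a (-0.28 ± 0.08), Dut (-0.28 ± 0.07) and Stmn1 (-0.20 ± 0.06). The members' share was near that of all genes. For Gmnn and Dut the direction between strains rests on the probe set, as described below. The count fell to 2 without high-salt ET3x1 rat 3 or low-salt ET3x2 rat 2. All 6 measured podocyte markers were lower in both congenic strains than in S, and 5 of 16 leukocyte markers were higher in each, with 1 lower in ET3x1. Of all genes 16.6% were higher and 13.2% lower in ET3x1, and 16.7% higher and 11.1% lower in ET3x2. The part of these cells in the strain differences was not tested.

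On low salt alone 7 members differed between ET3x1 and S (25.8% of all genes) and 6 between ET3x2 and S (19.5%). In ET3x1 these were Cdc20 (0.36 ± 0.10), Cdk4 (0.27 ± 0.09), Ccnd3 (0.25 ± 0.07) and Cdkn1a (0.21 ± 0.06), higher, and Mcm4 (-0.35 ± 0.09), Bub1b (-0.24 ± 0.07) and Fen1 (-0.21 ± 0.07), lower. In ET3x2 Cdk4 (0.32 ± 0.09) and Ccnd3 (0.23 ± 0.07) were higher, and Dut (-0.40 ± 0.09), Mki67 (-0.38 ± 0.12), Ccnb1 (-0.36 ± 0.11) and Fen1 (-0.23 ± 0.07) lower. On high salt 3 members were called for ET3x1 against S (11.1% of all genes), namely Gmnn (0.34 ± 0.09), Aurkb (0.27 ± 0.08) and Rfc2 (0.20 ± 0.06). For ET3x2 against S, Mcm4 was called (-0.35 ± 0.09, limma adjusted p = 0.0339), where 2.86% of all genes were. These counts rested on few rats. On low salt the 7 fell to 3 and 4 without low-salt ET3x1 rats 2 and 3. The 6 fell to 1, 2 and 3 without low-salt ET3x2 rat 1, low-salt ET3x2 rat 2 and low-salt S rat 4, and to 3 and 2 with the Gapdh and bioD minus bioC covariates. On high salt the 3 fell to 1 without high-salt S rat 4 or high-salt ET3x1 rats 1, 2 or 3, and to 0 with each covariate. The call of Mcm4 in ET3x2 was lost without high-salt S rats 1, 2 or 3 or high-salt ET3x2 rats 2, 3 or 4, and with bioD minus bioC. Cdk4 and Ccnd3 were lowest in low-salt S rat 1 in both cases, at 9.55 and 9.28.

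Other probe sets of the same genes did not always move alike. Over all probe sets 9.37% were called for salt averaged over the strains, 10.1% for salt in ET3x1, 30.4% for ET3x1 against S, 24.8% for ET3x2 against S and 9.84% between the congenic strains. For Cdkn2c a second probe set on RAE230B was higher in ET3x1 (0.72 ± 0.09) and ET3x2 (0.37 ± 0.09) than in S, where the brighter one was not called. For Dut a second set was higher in both congenic strains (0.29 ± 0.08 and 0.25 ± 0.08), opposite to the brighter set in ET3x2. For Gmnn a second set was lower in ET3x1 than in S (-0.20 ± 0.05), opposite to the brighter one, so the direction of Gmnn and Dut between strains rests on the probe set. For Cdk2 a second set was lower in ET3x1 (-0.24 ± 0.06), and other sets of Lig1 (0.35 ± 0.06) and Tk1 (0.22 ± 0.06) were higher there. In ET3x2 against S these sets of Lig1 (0.22 ± 0.06) and Tk1 (0.25 ± 0.06) were higher too. Between the congenic strains, other sets of Cdkn2c (-0.35 ± 0.10) and Cdc20 (-0.13 ± 0.04) were lower in ET3x2. Cdkn1a's dimmer set gave -0.03 ± 0.05 in ET3x1 against S. For salt averaged over the strains, second sets of Tk1 (0.28 ± 0.05), Cdk2 (0.17 ± 0.05) and Top2a (0.14 ± 0.05) were called in the same direction as the brightest. Second sets of Gmnn (-0.03 ± 0.04) and Dut (-0.12 ± 0.07) were not called. For salt in ET3x1 another set of Tk1 was called higher (0.34 ± 0.09) and 1 of Ccnd1 lower (-1.03 ± 0.25).

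The members' deviations from their group means were compared over the 26 rats, as a description, since all genes of a rat share its arrays and RNA quality. The median Pearson correlation of the 990 gene pairs was 0.21, and within roles it was 0.45 for the helicase genes, 0.44 for the mitosis genes and 0.13 for the fork genes. Pairs named here were picked after their values were seen. Cdkn3 and Ube2c had r = 0.90, Cks2 and Cdkn3 0.90, and Cdk1 and Cks2 0.88. Without the 2 rats farthest from the median of the first gene these were 0.84, 0.85 and 0.83, and Spearman's rho over all rats was 0.88, 0.89 and 0.87. Mcm2 and Mcm6 had r = 0.72 and Pcna and Mcm4 0.63. Cdkn1a and Cks2 had r = 0.03, and Fen1 and Cks2 -0.36. Within the mitosis genes r ranged from -0.09 to 0.86.

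**Figure D5:**
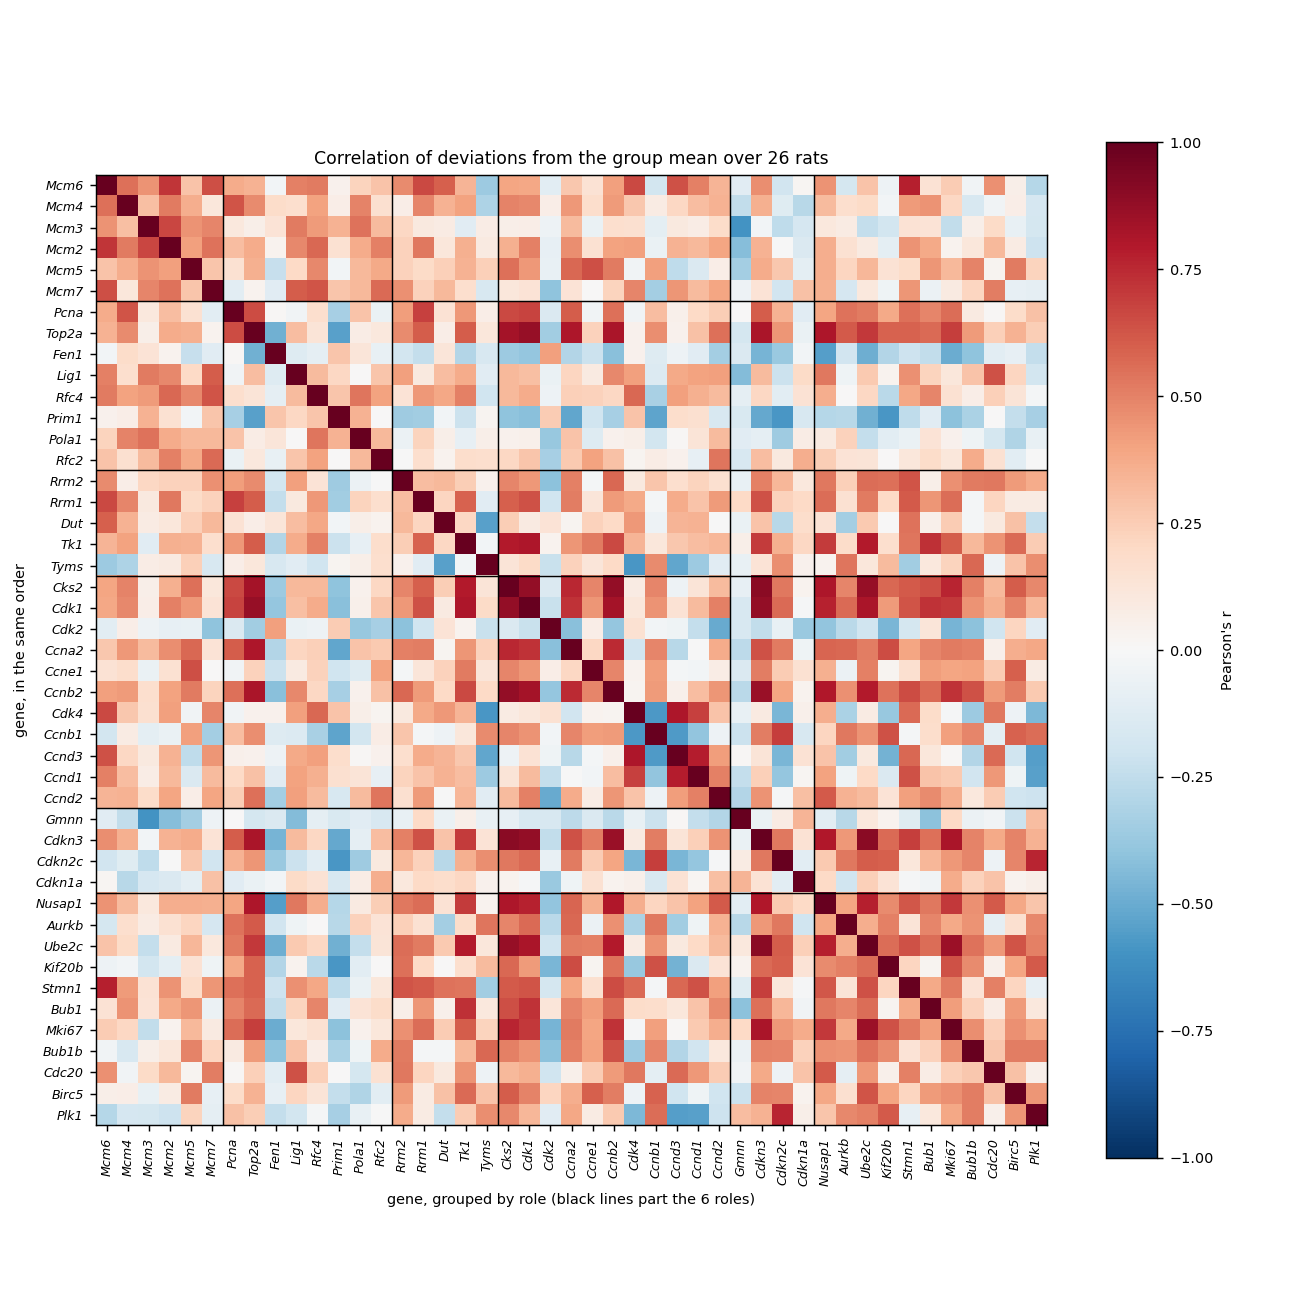
Pearson correlation of each pair of the 45 genes over 26 rats, after each group's mean was taken off. Rows and columns follow the same order and black lines part the 6 roles. The mitosis block at lower right has a median of 0.44 and the fork block one of 0.13.

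Genes of the same pathway outside the 45 were counted from wider lists, also chosen with earlier results of these data known. Of 93 measured cell cycle genes of 106 listed, 19 were higher and 1 lower on high salt for the mean of the strains, where 5.66% of all genes were higher and 3.78% lower. The largest were Rpa3, a subunit of the protein that coats single-stranded DNA (0.34 ± 0.06), Uhrf1, which copies DNA methylation (0.31 ± 0.07), and Cdt1, which loads the MCM helicase and is the target of geminin (0.29 ± 0.05). Cdkn2a was the lower one (-0.09 ± 0.03). Of 13 measured p53 target genes, Cdkn1a among them, 3 were higher and 2 lower against the same shares of all genes. Sesn2, a stress-response gene (-0.33 ± 0.07), Sesn1, its relative (0.26 ± 0.06), and Plk3 (-0.24 ± 0.08) differed most.

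Markers of other cells were counted beside these genes for the mean of the strains, where 5.66% of all genes were higher on high salt and 3.78% lower. Of 10 tubular injury markers 6 were higher on high salt, led by Spp1, osteopontin (0.65 ± 0.07), Vim, vimentin (0.30 ± 0.06), and Lcn2 (0.28 ± 0.04). The mean of that list ranged from 8.13 to 8.37 in low-salt and 8.49 to 8.60 in high-salt S rats, from 8.24 to 8.29 and 8.38 to 8.56 in ET3x1, and from 8.19 to 8.31 and 8.36 to 8.50 in ET3x2. Of 9 fibroblast and mesangium markers 3 were higher, Tagln (0.52 ± 0.09), Acta2 (0.42 ± 0.06) and Dcn (0.37 ± 0.07), with list means of 9.11 to 9.46 and 9.42 to 9.64 in S, 9.17 to 9.34 and 9.35 to 9.52 in ET3x1, and 9.15 to 9.24 and 9.15 to 9.48 in ET3x2. Of 16 leukocyte markers 2 were higher, of 8 erythroid markers 1 (Tfrc, 0.70 ± 0.10), of 5 markers of the developing nephron 0, and of 6 podocyte and 8 endothelial markers 2 each were lower. Of 10 proximal tubule, 6 thick ascending limb and 9 distal tubule and collecting duct markers, 2, 2 and 1 were higher and 0 lower. Ptprc, the pan-leukocyte marker, was at percentile 11.8 of its chip. The part of these cells in the members' changes was not tested.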

How the data were processed

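Biotin-labelled cRNA of 1 kidney per rat was hybridised to an RAE230A and an RAE230B chip, per the labels. The log2 values deposited by the authors are probe set summaries with near-equal array medians. How they were summarised and normalized is not given in the sources used here. Their number of 26 rats limits the precision.

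Control probe sets were left out, and the 100 maintenance probe sets shared by the chips were fitted for RAE230A alone. Each chip was fitted in limma 3.58.1 (R 4.3.3) with the 6 groups as coefficients and an intensity trend, with 20 residual degrees of freedom and no brightness filter. Benjamini-Hochberg adjustment ran over both chips in each of 14 comparisons, two-sided, and an adjusted p below 0.05 was a call. The fit was tested on simulated data. Each rat was 1 replicate, and the labels give no litter, batch or pairing, so none could be allowed for. The p-values set differences of group means against limma's moderated estimate of the spread between rats within the 6 groups. The annotation gave 20253 probe sets 1 symbol, 411 more than 1 and 10378 none.

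Members and gene lists were chosen with earlier results of these data known. Genes named are the called members of each comparison, up to 12, or the 2 of largest statistic where none was called. Cdkn1a, Cdkn2c, Ccnd1, Pcna, Top2a and Cdk1 are named whatever their value, and from other lists the 3 called genes of largest change. Values of every rat are given for these 6 and for members called in 3 or more comparisons. Values of Mcm6 in the S rats alone and of Ccnd2 in the ET3x1 rats alone were added after they were seen. In those strains the diets did not overlap, and in the strains left out they did. Other members are named to account for each gene. Probe set symbols came from the platform annotation, updated through Entrez identifiers. Promoters came from RefSeq (GRCr8), matched by gene identifier.

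Alternatives were a brightness filter, quantile normalization, centring of array medians, no trend, array weights, covariates of the Gapdh 3' to 5' ratio and of the bioD minus bioC spike-in signal, averaging each gene's probe sets, and leaving out each rat. The beta-actin covariate and leaving out all ET3x1 rats were chosen after seeing the data.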

Additional observations from a re-analysis of the deposited data

Results flagged for a closer look

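In 5 of 84 groups of rats tested (14 genes in 6 groups each), 1 rat stood apart from the others of its group by Dixon's test. Chance gives about 1 in 20 groups. Cdk1 was 7.90 in low-salt ET3x2 rat 3 against 7.60 to 7.62 in the other 3 rats, and Cdkn2c was 9.78 in the same rat against 9.39 to 9.45. Cdkn2c was 9.74 in high-salt ET3x2 rat 4 against 9.58 to 9.60. Cdkn1a was 8.41 in high-salt ET3x1 rat 1 against 8.51 to 8.53. Gmnn was 7.84 in low-salt ET3x1 rat 1 against 7.34 to 7.36.

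The response of Ccnd1 to salt differed between ET3x1 and S by a test of the difference itself in 1 of its 3 probe sets, not the brightest. That difference was -0.63 ± 0.17 (limma adjusted p = 0.0430). The probe set read 8.36, 8.51, 9.00, 8.97 and 9.12 in low-salt and 9.27, 8.95, 9.08, 8.86 and 9.07 in high-salt S rats, and 9.05, 9.28, 9.38 and 9.45 against 8.98, 8.90, 8.91 and 8.90 in ET3x1. Low-salt S rats 1 and 2 had the lowest of these S values (8.36 and 8.51), and the difference without either rat is not given here. The brightest probe set differed by -0.54 ± 0.18 (adjusted p = 0.108). In S the change of the brightest set was 0.20 ± 0.12 with all rats and 0.07 ± 0.11 without low-salt S rat 1. The other one fell on high salt in ET3x1 by 1.03 on the log2 scale (SE 0.25, adjusted p = 0.00720).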

How the results depend on the processing

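Counts of called members for salt averaged over strains fell from 22 to 2 (Gapdh covariate), 7 (beta-actin covariate) and 9 (without ET3x1 rats), and lay between 19 and 23 with 1 rat left out. Calls over all genes also fell, from 1304 to 19 with the Gapdh covariate and to 189 (1.37%) without the ET3x1 rats. Shares of all genes in the other alternative fits are not given here, so the member counts below cannot be set against them. For salt in S the 6 became 2 (bioD minus bioC) and 3 (beta-actin), with 2 to 9 without 1 rat. For salt in ET3x1 the 13 became 0 (Gapdh), 5 (bioD minus bioC) and 6 (beta-actin), with 7 to 15 without 1 rat. For salt in ET3x2 the 1 became 6 (array weights) and 0 (Gapdh), with 0 to 2 without 1 rat. For ET3x1 minus S the 8 became 5 (quantile, Gapdh, brightness filter) and 4 (beta-actin), with 5 to 10 without 1 rat. On low salt the 7 became 11 (array weights), with 3 to 10 without 1 rat, and on high salt the 3 became 0 with each of the 3 covariates, with 1 to 3. For ET3x2 minus S the 12 became 7 (brightness filter), with 7 to 14 without 1 rat. On low salt the 6 became 3 (Gapdh) and 2 (bioD minus bioC), with 1 to 8, and on high salt the 1 became 2 (array weights) and 0 (bioD minus bioC, brightness filter), with 0 to 1. For ET3x2 minus ET3x1 the 4 became 1 (Gapdh) and 2 (bioD minus bioC), with 2 to 6 without 1 rat. For the difference in salt response the 0 became 7 (array weights), 1 (quantile) and 1 (beta-actin) for ET3x1 minus S, with 0 to 2 without 1 rat, and 1 (array weights) for ET3x2 minus ET3x1. For ET3x2 minus S it was 0 throughout. The cause was not tested.

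Of 3310 values of named genes under the alternatives, 2944 stayed on the same side of the threshold, 359 lost a call, 7 gained one and 0 of the called ones changed sign. Dim probe sets such as those of Mcm4 and Ccna2 are open to low signal over background. Quality and diet ran together in the congenic strains, and the mean beta-actin ratio was also lower on high salt in S. No paired analysis was possible because the labels give rats no numbers shared between groups.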
